A study of Solanum lycopersicum with 6 samples.

Results

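The mitochondrial genome of tomato carries its own genes, and the count table lists 72 of them among 35821 rows in all. They were chosen by their identifiers, which all carry the same mitochondrial locus tag, so the rule itself uses no measured value. Of the 72 rows, 40 are protein gene rows, 5 are ribosomal RNA (rRNA) rows and 27 are transfer RNA (tRNA) rows. The RefSeq gene table of assembly SLM_r2.1 paired 72 of the 72 identifiers with a symbol, and it marks 1 of the protein gene rows, rps14, as a pseudogene. The genes nad1, nad2, nad5 and cox2, which plant mitochondria also carry, were not analysed here.

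RNA-seq libraries were made from leaves, the fourth true leaf in each case, with 3 biological replicates of the *kyp* mutant and 3 of the wild type (WT). The plants were 4 weeks old and were grown at 24 °C with 16 h of light. Both genotypes share the M82 cultivar background, and neither received a treatment. The *kyp* mutant is impaired in the deposition of H3K9me2, a histone mark of silent nuclear chromatin, and the sources used here do not describe its allele. The 3 *kyp* libraries held 7283885 to 10091231 counts and the 3 WT libraries 8925379 to 11012421 counts. Nuclear identifiers were not paired with gene names, so the KYP gene itself was not checked in the libraries. As a check of the tissue, 7 of 7 plastid photosynthesis genes (rbcL, psbA, psaA, psaB, psbB, psbC and psbD) had counts in every library, with a summed level of 194.6 to 368.5 CPM (counts scaled to a fixed library total) in *kyp* and 323.2 to 723.8 CPM in WT. Their change between the genotypes is given with the plastid rows below.

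Plant mitochondrial genomes encode some subunits of the respiratory chain, a part of the mitochondrial ribosome with its rRNAs, several tRNAs and proteins that attach heme to cytochrome c. The nad genes encode subunits of complex I, sdh of complex II, cob of complex III, cox of complex IV and atp of the ATP synthase. All other mitochondrial proteins come from nuclear genes, including the polymerases that transcribe the mitochondrial genome and most factors that splice and edit its transcripts. Mitochondrial DNA carries no histones. How the change of H3K9me2 in *kyp* relates to the counts on these rows was not tested.

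The comparison addressed here is whether leaf transcripts of the mitochondrial genome differ between *kyp* and WT plants. Summed over the mitochondrial rows, counts were a larger share of the library in *kyp*. This sum rests mostly on the rrn26 row, described below. The mitochondrial rows together took 0.0994%, 0.0693% and 0.110% of the counts in the 3 *kyp* libraries, against 0.0426%, 0.0422% and 0.0460% in the 3 WT libraries. Every *kyp* library lay above every WT library. In bulk leaf RNA, more cells of a type, more mitochondria or mitochondrial DNA per cell and more RNA per gene copy cannot be told apart. The sources used here do not say how rRNA was removed or messenger RNA selected before library preparation, a step on which the share of mitochondrial RNA depends.

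**Figure D1:**
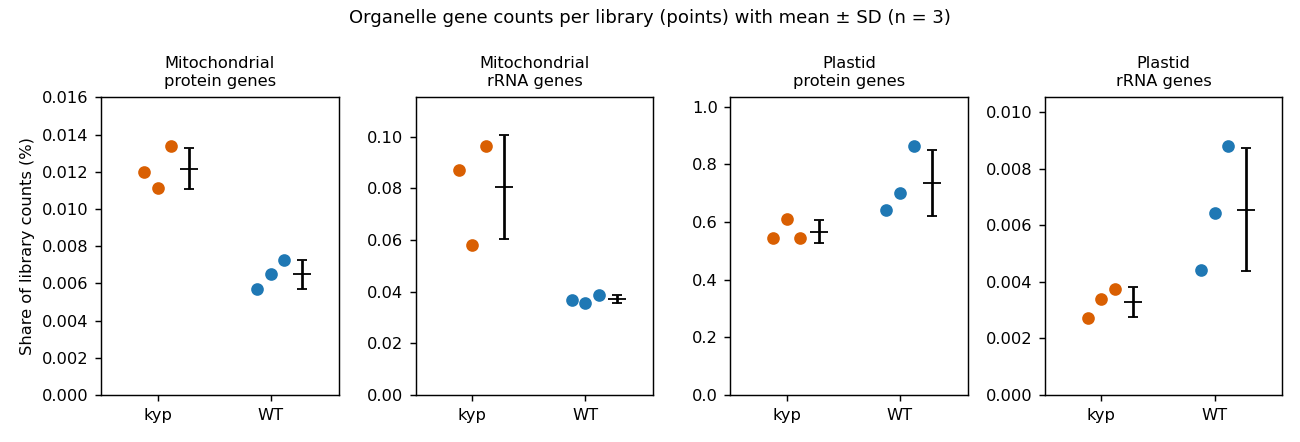
Share of all library counts, in percent, on mitochondrial protein genes, mitochondrial rRNA genes, plastid protein genes and plastid rRNA genes, with a point per library for *kyp* (orange, left) and WT (blue, right) and the mean ± SD in black (n = 3 each). Both mitochondrial classes were higher in every *kyp* library than in every WT library (means 0.0122% against 0.00649% for protein genes), and both plastid classes lay below WT.

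Most mitochondrial counts came from rRNA, and within that from a single row. The rRNA rows held 87.7%, 83.6% and 87.7% of all mitochondrial counts in the *kyp* libraries and 86.5%, 84.3% and 84.0% in the WT libraries, so the split between rRNA and protein genes overlapped between the genotypes. The rrn26 row, which encodes the large-subunit rRNA of the mitochondrial ribosome, alone took 98.9% ± 0.26 of the mitochondrial rRNA counts in *kyp* and 98.8% ± 0.067 in WT (SD, n = 3 each). Protein genes and rRNA are therefore described apart from each other. For comparison with the rest of the table, edgeR's quasi-likelihood test was fitted to all 20154 genes that passed its filter on low counts, and a gene was called where its p, adjusted by Benjamini-Hochberg over all of them, was under 0.05. Over these genes, 14.8% were called higher in *kyp* and 10.2% lower, and the median log2 fold change was -0.0070. Fold changes are *kyp* over WT, and CPM values of single genes are scaled to the library by TMM.

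The rRNA rows rose in *kyp*. Together they took 0.0872%, 0.0580% and 0.0963% of all counts in the *kyp* libraries, against 0.0369%, 0.0355% and 0.0387% in the WT libraries, with means of 0.0805% ± 0.020 in *kyp* and 0.0370% ± 0.0016 in WT (SD, n = 3 each). An exact permutation test of the shares gave a two-sided p of 0.1, the smallest that 3 libraries against 3 can give. Of the 5 rows, 3 passed the filter and all 3 were called higher. These are rrn26 and both listed rows of rrn18, the small-subunit rRNA. The remaining 2 rows are copies of rrn5, the 5S rRNA. One of them had 1 count in a *kyp* library and 1 in a WT library, and the other had 0 counts in every library, both under the floor of 3 counts per library taken here as the smallest readable signal.

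The rrn26 row had 6284, 5405 and 9621 counts in the *kyp* libraries and 3255, 3865 and 3412 counts in the WT libraries. Scaled to the library, this gave 883.4, 593.3 and 951.9 CPM in *kyp* and 355.9, 340.1 and 380.6 CPM in WT. The 3 WT libraries lay close together, whereas *kyp* replicate 2 was well under the other *kyp* replicates, and the genotypes did not overlap. The log2 fold change was 1.17 ± 0.17 (SE, adjusted p = 0.0015 by edgeR's test).

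The symbol rrn18 is listed in a pair of rows with the same name, and how reads were split between such copies depends on the authors' handling of reads that map to both. The first, with locus tag CQW56_mgr03, had 48, 41 and 57 counts in *kyp* and 24, 24 and 24 in WT. Its log2 fold change was 1.18 ± 0.24 (SE, adjusted p = 0.0074 by edgeR's test). The second, CQW56_mgr02, had 18, 38 and 35 counts in *kyp* and 12, 24 and 14 in WT, with a log2 fold change of 1.02 ± 0.29 (SE, adjusted p = 0.035 by edgeR's test), and this call was lost with DESeq2 (adjusted p = 0.080) and without *kyp* replicate 2, *kyp* replicate 3, WT replicate 1 or WT replicate 3 (0.091 to 0.12). The genotypes did not overlap in either row. With both copies summed, rrn18 had 66, 79 and 92 counts in *kyp* and 36, 48 and 38 in WT, and a log2 fold change of 1.12 ± 0.16 (SE, adjusted p = 0.0014 by edgeR's test). The small-subunit and large-subunit rRNAs thus showed log2 fold changes of like size, and the ratio of rrn26 to rrn18 counts was 95.2, 68.4 and 104.6 in *kyp* and 90.4, 80.5 and 89.8 in WT. These ratios overlapped between the genotypes. They are ratios of counts and not of molecules, since gene lengths and the treatment of duplicated rows enter them.

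The summed protein genes also rose. They had 875, 1054 and 1349 counts in the *kyp* libraries and 510, 716 and 648 in the WT libraries. This was 0.0120%, 0.0111% and 0.0134% of all counts in *kyp* against 0.00571%, 0.00650% and 0.00726% in WT. The means were 0.0122% ± 0.0011 in *kyp* and 0.00649% ± 0.00077 in WT (SD, n = 3 each), and the genotypes did not overlap. The 95% Wilson interval of each library's share reached at most 0.00082 percentage points to either side for protein genes and 0.0022 for rRNA, which covers counting error only. An exact two-sided permutation test gave p = 0.1, again the smallest possible. The ratio of rRNA to protein gene counts was 7.26, 5.20 and 7.20 in *kyp* and 6.45, 5.47 and 5.32 in WT, so that it overlapped between the genotypes.

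Counts on most protein rows were few. Only 16 of the 40 protein rows passed the filter, and 5 of these were called higher in *kyp* and 0 lower, where 14.8% of all tested genes were called higher and 10.2% lower. The 5 rows were rps10, nad7, nad4, ccmFc and atp1. The other 11 tested rows were not called. Of the 16 tested rows, 15 had a positive log2 fold change, as did 49.1% of all tested genes, with a median over the 16 rows of 0.52 and a range of -0.23 to 1.70. All 3 *kyp* libraries lay above all 3 WT libraries in 6 of the 16 rows, and in 21.9% of all tested genes. The filter asks for about 1.09 CPM in enough libraries, and 1 of the 16 rows, ccmFc, reached that level in *kyp* libraries only, so its presence among the tested rows already depended on its level in *kyp*.

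**Figure D2:**
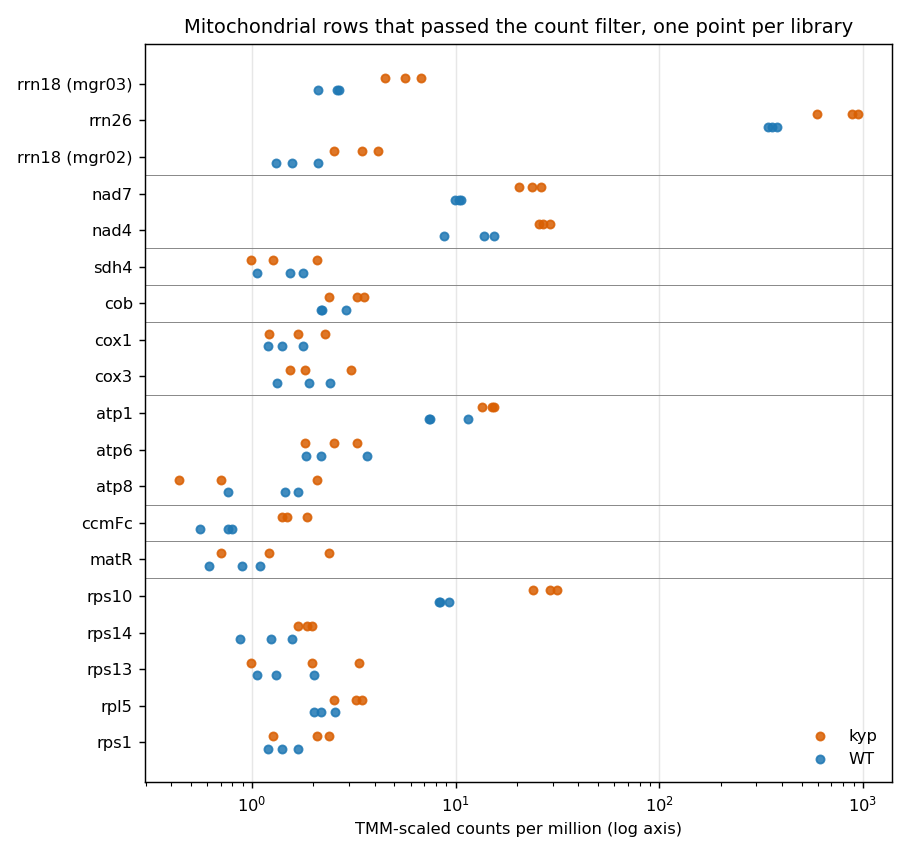
TMM-scaled CPM (log axis) of the mitochondrial rows that passed the count filter, with a point per library for *kyp* (orange, upper line of each row) and WT (blue, lower line), grouped by function. The genotypes separate for rrn26, both rrn18 rows, nad7, nad4, atp1, ccmFc, rps10 and rps14, and overlap in the other rows.

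Complex I is the entry point of electrons from NADH into the respiratory chain. Of the 6 nad rows, 2 passed the filter and both were called higher. nad7, a subunit of the arm that protrudes into the matrix, had 187, 186 and 239 counts in *kyp* and 91, 118 and 95 in WT. Its levels were 26.3, 20.4 and 23.6 CPM in *kyp* and 9.95, 10.4 and 10.6 CPM in WT, with very close values in WT and no overlap. The log2 fold change was 1.18 ± 0.13 (SE, adjusted p = 0.00041 by edgeR's test). nad4, a subunit of the membrane arm that takes part in proton pumping, had 183, 266 and 272 counts in *kyp* and 80, 175 and 124 in WT. This corresponds to 25.7, 29.2 and 26.9 CPM in *kyp* against 8.75, 15.4 and 13.8 CPM in WT, where WT replicate 1 was the lowest library. Its log2 fold change was 1.10 ± 0.19 (SE, adjusted p = 0.0038 by edgeR's test). The other 4 nad rows, nad3, nad4L, nad6 and nad9, were too low to be tested. The most counted of them by mean CPM, nad6, had 1, 3 and 3 counts in *kyp* and 3, 5 and 3 in WT.

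The ribosomal protein genes are the largest class, with 17 rows, of which 5 passed the filter. The gene with the largest fold change of the tested mitochondrial rows was rps10, which encodes a protein of the small ribosomal subunit. It had 223, 219 and 295 counts in *kyp* and 76, 105 and 75 in WT. The levels of 31.3, 24.0 and 29.2 CPM in *kyp* were far above the 8.31, 9.24 and 8.37 CPM in WT. The log2 fold change was 1.70 ± 0.14, or 3.25-fold (SE, adjusted p = 9.6e-05 by edgeR's test). This call held with DESeq2, with limma-voom, under each scaling to the library and without any one of the 6 libraries. The other tested ribosomal protein rows were not called, although their log2 fold changes were all positive, from 0.45 to 0.60. Of these, rpl5, of the large subunit, had 23, 23 and 35 counts in *kyp* and 20, 23 and 23 in WT, with a log2 fold change of 0.45 (95% interval -0.11 to 1.00, adjusted p = 0.22 by edgeR's test). rps13 had 7, 18 and 34 counts in *kyp* and 12, 12 and 18 in WT, and the spread within *kyp* was as wide as any difference from WT (log2 fold change 0.59, 95% interval -0.43 to 1.62, adjusted p = 0.37 by edgeR's test). The rps14 row is the pseudogene, and it had 12, 17 and 20 counts in *kyp* and 8, 14 and 14 in WT without being called.

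The genes nad4, rps10 and cox1 are neighbouring protein genes in the RefSeq annotation, and only the first pair were called. cox1, the catalytic subunit of complex IV, had 12, 11 and 23 counts in *kyp* and 11, 16 and 16 in WT, which overlapped between the genotypes. Its log2 fold change was 0.25 (95% interval -0.51 to 1.00, adjusted p = 0.63 by edgeR's test), an interval that lies wholly below that of rps10 (1.38 to 2.02). The difference between the genes was not tested directly. cox3, another core subunit of complex IV, likewise overlapped, with 13, 14 and 31 counts in *kyp* and 22, 15 and 17 in WT and a log2 fold change of 0.23 (95% interval -0.59 to 1.05, adjusted p = 0.68 by edgeR's test). At 11 to 31 counts per library, these intervals still include a 2-fold increase. No increase of the complex IV genes was detectable at this depth.

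The ATP synthase genes were mixed. atp1, which encodes the alpha subunit of the catalytic head, had 96, 137 and 155 counts in *kyp* and 68, 84 and 103 in WT. Its levels of 13.5, 15.04 and 15.3 CPM in *kyp* lay above the 7.44, 7.39 and 11.5 CPM in WT, with WT replicate 3 nearest to *kyp*. The log2 fold change was 0.75 ± 0.19 (SE, adjusted p = 0.023 by edgeR's test), and the call was lost without *kyp* replicate 3 (adjusted p = 0.076), without WT replicate 1 (0.082) or without WT replicate 2 (0.086). By contrast, atp6, a membrane subunit of the proton channel, had 13, 23 and 33 counts in *kyp* and 20, 21 and 33 in WT, with a log2 fold change of 0.02 (95% interval -0.75 to 0.79, adjusted p = 0.97 by edgeR's test). The third tested gene, atp8, another membrane subunit, had 5, 4 and 21 counts in *kyp* and 7, 19 and 13 in WT, with *kyp* replicate 3 far above the other *kyp* replicates (log2 fold change -0.23, 95% interval -1.50 to 1.05, adjusted p = 0.80 by edgeR's test). The remaining 3 rows of this class, atp4 and the pair of atp9 rows, were not tested.

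Complexes II and III showed no called change. cob, the cytochrome b of complex III, had 17, 30 and 36 counts in *kyp* and 20, 25 and 26 in WT (log2 fold change 0.36, 95% interval -0.22 to 0.95, adjusted p = 0.34 by edgeR's test). sdh4, a membrane anchor of complex II, had 9, 9 and 21 counts in *kyp* and 14, 12 and 16 in WT (log2 fold change 0.03, 95% interval -0.82 to 0.87, adjusted p = 0.97 by edgeR's test). The genotypes overlapped in both genes. The sdh4 row overlaps that of cox3 in the RefSeq annotation, so counts of both are uncertain. The second complex II gene, sdh3, had 0, 1 and 1 counts in *kyp* and 2, 0 and 5 in WT, mostly at or under the floor.

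Among the 4 genes of cytochrome c maturation, which attach heme to cytochrome c and c1, ccmFc alone passed the filter. It had 10, 17 and 15 counts in *kyp* and 7, 9 and 5 in WT, without overlap once scaled (1.41, 1.87 and 1.48 CPM against 0.765, 0.792 and 0.558 CPM). The log2 fold change of 1.15 ± 0.32 (SE) had an adjusted p near the threshold (0.031 by edgeR's test), and leaving out any one of the 6 libraries ended the call (adjusted p from 0.055 to 0.099). The call was also lost with DESeq2 (adjusted p = 0.17) and without the filter on low counts (0.058). ccmFN had 4, 4 and 3 counts in *kyp* and 1, 1 and 4 in WT, and ccmB had 1, 3 and 0 in *kyp* and 1, 2 and 0 in WT. matR, a maturase gene whose product is thought to take part in splicing of mitochondrial introns, had 5, 11 and 24 counts in *kyp* and 10, 7 and 8 in WT, with overlapping genotypes (log2 fold change 0.79, 95% interval -0.30 to 1.88, adjusted p = 0.27 by edgeR's test). mttB, a component of a protein transport system of the inner membrane, had at most 1 count in any library.

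**Figure D3:**
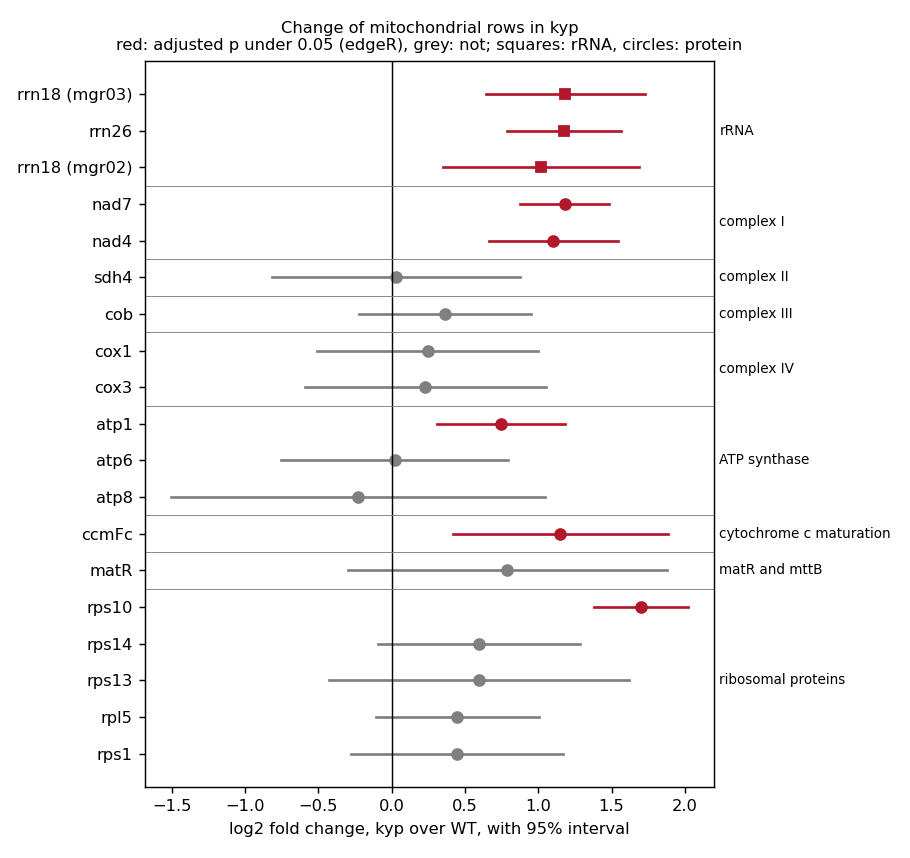
Log2 fold change of *kyp* over WT with its 95% interval for the mitochondrial rows that passed the count filter, grouped by function, with rRNA as squares and protein genes as circles. Red marks an adjusted p under 0.05 by edgeR's quasi-likelihood test. The 3 rRNA rows and 5 protein rows are red and lie right of 0, with rps10 farthest right at 1.70, and the rows of complexes II, III and IV are grey with intervals that include 0.

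The rows that were too low to be tested can be read only as a sum. The 24 untested protein rows, with at most 12 counts in any library, together had 51, 50 and 71 counts in *kyp* and 33, 45 and 47 in WT. Scaled to the library these were 7.17, 5.49 and 7.02 CPM in *kyp* and 3.61, 3.96 and 5.24 CPM in WT, so the genotypes did not overlap, though *kyp* replicate 2 and WT replicate 3 lay close. The 11 rows that were tested but not called together had 17.6, 19.7 and 29.9 CPM in *kyp* and 16.9, 15.8 and 22.2 CPM in WT, with overlap. The 35 protein rows outside the called ones had 24.7, 25.1 and 36.9 CPM together in *kyp*. In WT they had 20.6, 19.8 and 27.4 CPM, so the genotypes overlapped, and the mean was 1.28-fold higher in *kyp*. Of the untested protein rows, 12 belong to 6 symbols that are listed in a pair of rows each (rps3, rpl2, rpl10, rpl16, rps19 and atp9), and their low counts are uncertain for the same reason as those of rrn18. The 27 tRNA rows had 16, 18 and 15 counts in total in *kyp* and 2, 14 and 10 in WT, and 0 of them passed the filter. The 2 tRNA rows with the most counts, trnS(GCT) with 4, 11 and 3 counts in *kyp* and 0, 6 and 2 in WT and trnF(GAA) with 3, 5 and 6 in *kyp* and 2, 2 and 3 in WT, were chosen after their values were seen.

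The 5 called protein rows made up a larger part of the protein gene counts in *kyp*, with 79.9%, 78.3% and 72.3% against 63.1%, 68.6% and 62.0% in WT. This is given as a description, since the rows were picked by the same contrast. rps10 alone accounted for 25.5%, 20.8% and 21.9% in *kyp* and 14.9%, 14.7% and 11.6% in WT. The libraries were also scaled to the counts on mitochondrial protein genes in place of all genes. On this scale rps10 was higher in *kyp*, with a log2 difference of 0.73 (adjusted p = 0.0018 by edgeR's test). There nad4, nad7, ccmFc and atp1 were not called, and atp6, atp8 and sdh4 were called lower. As rps10 had been picked by the main contrast, its value here is a description. This scaling moved the median over all tested genes to -0.98. Of the 20154 genes, 16287 were called lower and 1116 higher on it. Calls on that scale, in either direction, are therefore not read as changes of single genes.

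**Figure D4:**
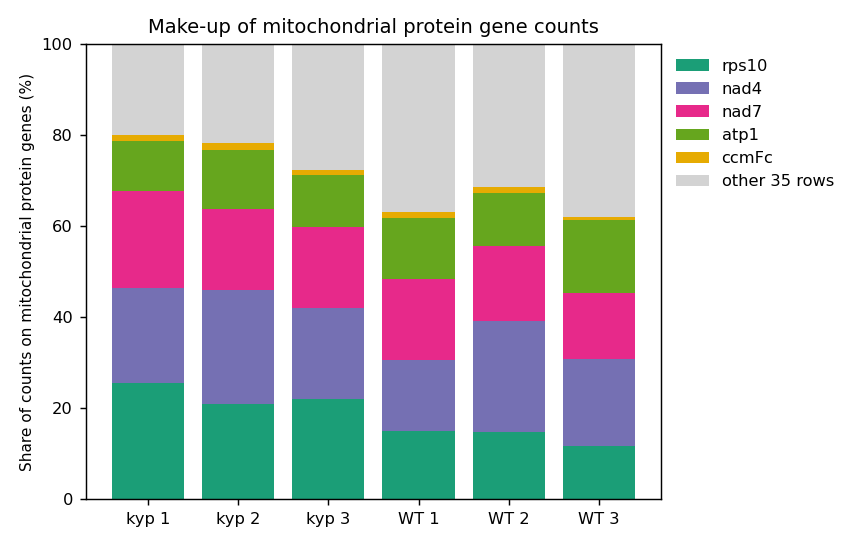
Stacked bars of the percent of mitochondrial protein gene counts taken by rps10, nad4, nad7, atp1, ccmFc and the other 35 rows in each library, *kyp* on the left and WT on the right. rps10 takes 20.8% to 25.5% in *kyp* and 11.6% to 14.9% in WT, and the grey part for the other rows is smaller in each *kyp* library.

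A feature that the choice of members did not use is the presence of introns. In flowering plants, nad4, nad7, ccmFc, rps3 and rpl2 are interrupted by group II introns, as rps10 is in potato. These genes hold 8 of the 40 protein rows, of which 4 passed the filter. All 4 were called higher, where 14.8% of all tested genes were, with log2 fold changes from 1.10 to 1.70. One of them, ccmFc, passed the filter through *kyp* libraries only, and its call was lost with DESeq2, without the filter and without any one library, so the count rests on rps10, nad7 and nad4. With its pair of rows summed, rps3 also passed the filter and was not called. The summed rps3 had 13, 3 and 20 counts in *kyp* and 11, 12 and 6 in WT (log2 fold change 0.47, adjusted p = 0.58 by edgeR's test). Of the 12 tested rows of genes outside this list, 1 (atp1) was called higher, and the other 11 had log2 fold changes from -0.23 to 0.79. The list was drawn up after the values were seen, so no test was made of it. The table does not separate reads on exons from reads on introns, and whether the counts of these genes come from spliced or unspliced transcripts was not tested. Of these 4 rows, 3 (rps10, nad4 and nad7) were also the protein rows with the highest mean CPM, whereas ccmFc was among the low ones (1.59 CPM in *kyp* and 0.705 CPM in WT). The part of the count level in this split was not tested.

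The plastid genome, the other organelle genome of the leaf cell, did not rise with the mitochondrial one. Its 89 protein rows took 0.543%, 0.611% and 0.546% of the counts in *kyp* and 0.642%, 0.700% and 0.863% in WT. Most of these lay on atpB, with 23085, 33578 and 30139 counts in *kyp* and 34788, 44531 and 42122 in WT. atpE followed, with 7413, 10933 and 9927 in *kyp* and 10778, 14029 and 14040 in WT. Neither row was called (adjusted p = 0.13 and 0.16 by edgeR's test). Of 75 tested plastid protein rows, 1 was called higher in *kyp* (matK) and 9 were called lower, where 14.8% of all tested genes were called higher and 10.2% lower, so the share of lower calls was near that of all genes. The 7 photosynthesis genes of the tissue check all had negative log2 fold changes, from -1.12 to -0.37. Among them only psbA was called lower (adjusted p = 0.019 by edgeR's test). A positive log2 fold change was seen in 9 of these 75 rows. The median log2 fold change of these plastid rows was -0.43, against 0.52 for the mitochondrial ones. Of 4 tested plastid rRNA rows, 3 were called lower. The 8 plastid rRNA rows together had 199, 320 and 379 counts in *kyp* and 396, 708 and 785 in WT. The counts of plastid rRNA were thus lower in *kyp* while those of mitochondrial rRNA were higher. With counts on nuclear genes as the denominator, the log2 ratio of the mitochondrial protein gene share was 0.905, against 0.907 with all counts. That of the mitochondrial rRNA share was 1.118, against 1.120 with all counts. Whether the plastid and mitochondrial changes are linked was not tested.

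The ratio of mitochondrial to plastid protein gene counts within a library does not depend on how the library is scaled. It was 2.21%, 1.82% and 2.45% in *kyp* and 0.890%, 0.928% and 0.842% in WT. The means were 2.16% ± 0.32 and 0.887% ± 0.043 (SD, n = 3 each). By the difference of the mean log2 ratios, the ratio was 2.42-fold higher in *kyp*. This log2 difference was 1.28 with all plastid protein rows and 1.25 without plastid atpB. The genotypes did not overlap, and the exact two-sided permutation test of the log2 ratios gave p = 0.1, the smallest possible with 3 against 3.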

How the data were processed

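RNA-seq was analysed for 3 *kyp* and 3 WT libraries. The authors deposited raw counts (integers, 1 value for each gene in each library) that were not normalized. The paper's methods name Trimmomatic, Bowtie2 on the M82 genome and removal of PCR duplicates and of alignments with low mapping quality. The submitters' processing notes list Trimmomatic 0.38, HISAT2 2.2.1, SAMtools 1.9, featureCounts and DESeq2. Which aligner made the table, the strand setting and the annotation release are not given in the sources used here. Removal of duplicates lowers the counts of abundant rows such as rrn26, and limits on mapping quality lower those of repeated rows.

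All 20154 genes that passed filterByExpr (minimum count 10, minimum total 15) were fitted with edgeR 4.0.16 in R 4.3.3 (TMM, quasi-likelihood test, genotype as the only factor). Only organelle rows were then read out. TMM factors were 0.963 to 1.03. Standard errors were derived from the F statistic. The floor of 3 counts equals 0.264 to 0.422 CPM. Replicates differed by more than sampling noise (chi-square per degree of freedom 4.56 to 11.7), and the labels call them biological replicates. The fit was tested on simulated data. Permutation tests used SciPy 1.17.1, and figures matplotlib 3.10.9.

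The genes named are the rRNA rows, the called rows and the 3 rows with the highest mean CPM in each functional class, and a few more chosen after their values were seen. The rule for the members uses identifiers alone, but these genes and the lists were picked for description with earlier results of these data known. Alternatives were DESeq2 1.42.0, limma-voom (limma 3.58.1), other scalings, no filter, a 2-fold minimum, summed copies, a replicate block and leaving out each replicate. No sequences are shown, since no sequence table was used here.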

Additional observations from a re-analysis of the deposited data

How the results depend on the processing

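The 5 protein rows called higher in *kyp* were kept with limma-voom, upper-quartile scaling, library totals alone and scaling without organelle rows, and 4 of them with DESeq2 and without the filter. Scaling without rrn26, chosen after seeing the data, also kept all 5. Leaving out 1 replicate gave from 3 to 4 called protein rows, with 3 without *kyp* replicate 3, without WT replicate 1 or without WT replicate 2, and 2 to 3 rRNA rows. In every such fit rps10, nad7, nad4 and rrn26 stayed called. DESeq2 called 2 rRNA rows. The log2 ratio of the protein gene share was 0.91 in the main comparison and 0.82 to 1.00 without a replicate, and that of the rRNA share was 1.12 and 0.97 to 1.31. The 2-fold minimum left 4 protein rows.

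No source says that equally numbered plants were grown together, and the deviations of same-numbered libraries correlated at 0.17, 0.061 and -0.043, so the numbers do not pair the libraries. With the replicate block 4 protein rows and 3 rRNA rows were called, and the row lost was ccmFc (adjusted p = 0.055). Not every library correlated best with its own number.

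Several rows that were not called changed sign with some setting. Scaled to the mitochondrial protein genes, the log2 values were -0.52 for rpl5, -0.76 for cox3, -0.94 for sdh4, -0.60 for cob, -0.19 for matR, -0.72 for cox1, -0.37 for rps13 and -0.94 for atp6, and the called atp1 was at -0.21. This follows from the scaling, which takes away the increase of the summed protein gene counts, most of which lie on the called rows. Library totals alone gave -0.025 for sdh4 and -0.032 for atp6. limma-voom gave -0.0076 and the replicate block -0.019 for sdh4. Without a replicate, the ranges were -0.36 to 0.25 for sdh4, -0.21 to 0.36 for atp6, -0.15 to 0.44 for cox3, -0.032 to 0.46 for cox1 and -1.21 to 0.16 for atp8. The cause was not tested. Depth limits the protein rows that did not pass the filter, for which no change of a single row could be read. It also leaves the call of ccmFc uncertain, with 7, 9 and 5 counts in WT.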
